A study of Drosophila melanogaster with 10 samples.

Results

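The mitochondrial ribosomal protein genes of Drosophila melanogaster were taken as all genes whose FlyBase symbol begins with mRpL, for the large subunit, or mRpS, for the small subunit. The annotation holds 73 such genes, and 72 of them, 47 mRpL and 25 mRpS, were among the 17735 gene identifiers counted. The data are RNA sequencing of whole third-instar larvae of 5 genotypes with 2 libraries each, and the study asked how the architectural proteins CTCF, Su(Hw) and Pita act together in bringing the cofactor CP190 to regulatory elements. All strains shared the y1w1118 background. The wild type carried dCTCFwt, and larvae called CTCF-mutant carried dCTCFdeltaCP, in which the domain that binds CP190 is mutated. The larvae called CTCF/Su(Hw) carried dCTCFdeltaCP with SuHwdelta114, those called CTCF/Pita carried dCTCFdeltaCP with PitadeltaCP1, and triple-mutant larvae carried all of these alleles. All 4 mutant genotypes therefore shared dCTCFdeltaCP, and no Su(Hw) or Pita mutant with unmutated CTCF was among the groups. RNA came from pooled whole larvae, so fewer cells of a type and less RNA per cell cannot be told apart, and the labels give neither sex nor batch.

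Mitochondria keep a ribosome of their own that translates the few proteins encoded by mitochondrial DNA, nearly all of them core subunits of the respiratory chain and of ATP synthase. Its RNA comes from mitochondrial DNA, while its proteins are encoded in the nucleus, made by cytosolic ribosomes and imported. Part of these proteins descend from bacterial ribosomal proteins and keep the bacterial number in their name, and others are found only in mitochondria. In flies, loss of single members slows growth and impairs respiration, and the larval period, with its fast growth, depends on mitochondrial translation.

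The libraries held 18856997 to 24391317 reads, of which 5670793 to 8220126 were assigned to genes and 50.9% to 65.5% mapped to several places. Levels are given below as CPM, counts scaled to a common library size, with library sizes adjusted by TMM, a scaling that takes most genes as unchanged. The alleles change protein domains, so transcript levels do not show the mutations themselves. Transcripts of pita and su(Hw) were high only in the groups labelled with an allele of that gene. The gene pita stood at 27.8 ± 5.24 CPM in wild type, 23.2 ± 8.13 in CTCF-mutant larvae and 18.8 ± 2.37 in CTCF/Su(Hw) larvae. It stood at 160.0 ± 11.6 in CTCF/Pita larvae and 192 ± 36.1 in triple-mutant larvae. The gene su(Hw) stood at 25.7 ± 0.82 in wild type, 21.2 ± 0.69 in CTCF-mutant larvae and 23.8 ± 0.63 in CTCF/Pita larvae. It stood at 488 ± 11.7 in CTCF/Su(Hw) larvae and 479 ± 131 in triple-mutant larvae (SD, n = 2). The Su(Hw) and Pita mutations, as named below, therefore stand for the allele together with this higher transcript level. These cannot be told apart in any of the comparisons. Transcripts of CTCF were at 14.2 CPM in wild type, 6.83 ± 1.80 in CTCF-mutant larvae, 11.1 in CTCF/Su(Hw) larvae, 21 in CTCF/Pita larvae and 22.3 ± 5.98 in triple-mutant larvae, although all 4 mutants carry the same CTCF allele. The libraries of CTCF/Su(Hw) larvae stood apart, since they differed from each other far less than other replicate pairs did, with a chi-square per degree of freedom of 1.79 against 14.4 to 41.4. The sources used here do not say whether they come from separate RNA. If they do not, they are 1 biological sample and all p-values are too small, since the spread is shared. For some comparisons a count of calls or a member median is also given with these libraries summed. Reads of mitochondrial DNA made up 14.2% and 14.6% of assigned reads in wild type, 34.6% and 24.2% in CTCF-mutant larvae, 8.67% and 8.80% in CTCF/Su(Hw) larvae, 18.7% and 12.9% in CTCF/Pita larvae, and 11.7% and 18.1% in triple-mutant larvae.

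Levels of the family were compared per kilobase of exonic bases that no other gene shares. For mRpS21 these were 247 of 475 exonic bases and for mRpS24 268 of 600, so levels per kilobase of all exonic bases would be lower. Over the 70 members that passed the filter on low counts, the mean over all libraries had a median of 18.4 CPM per kilobase of unshared exon. The quartiles were 14.0 and 23.5, and the range ran from 6.90 to 41.7. The large-subunit members had a median of 18.6 CPM per kilobase and the small-subunit members of 17.8. The 5 highest over all libraries were mRpL28 with 41.7, mRpL33 with 39.6, mRpS7 with 33.0, mRpS16 with 32.7 and mRpL42 with 32.0 CPM per kilobase. Of these, mRpL28, mRpL33, mRpS7 and mRpS16 have bacterial counterparts, and in bacteria S7 organises the head of the small subunit, while mRpL42 is found only in mitochondria. The lowest 5, counting mRpS24, which failed the filter, were mRpS24 with 4.92, mRpS21 with 6.90, mRpS6 with 9.06, mRpS31 with 9.16 and mRpL21 with 9.27 CPM per kilobase. The order differed between genotypes. In wild type alone the highest were mRpL28 with 46.9 ± 11.4, mRpL9 with 43.6 ± 4.45 and mRpL30 with 37.8 ± 7.12 CPM per kilobase. The differences between these genes were within their SDs. In CTCF-mutant larvae mRpL42 led with 70.8 ± 6.36 (SD, n = 2). No test of this order was made.

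How the summed level of the family compared between genotypes depended on the scale. As a plain share of each library's assigned reads, in CPM without TMM, the 72 genes took 1193 and 1216 in wild type, 881 and 1181 in CTCF-mutant larvae, 1074 and 1056 in CTCF/Su(Hw) larvae, 974 and 1067 in CTCF/Pita larvae, and 1013 and 968 in triple-mutant larvae. All 8 mutant libraries were below both wild-type libraries on that scale, by little in one library of CTCF-mutant larvae. In TMM-scaled CPM the sum was 1295 ± 70.7 in wild type, 1644 ± 70 in CTCF-mutant larvae, 816 ± 2.55 in CTCF/Su(Hw) larvae, 783 ± 11.2 in CTCF/Pita larvae and 986 ± 173 in triple-mutant larvae (SD, n = 2). CTCF-mutant larvae thus stood above wild type on this scale and the other 3 mutants below it, with no overlap between either of these and wild type. With reads of mitochondrial DNA left out of the total, the sum was 1390 and 1424 CPM without TMM in wild type, 1346 and 1558 in CTCF-mutant larvae, and from 1147 to 1226 in the other 6 mutant libraries.

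Set against other nuclear genes of protein synthesis and respiration, the order of the genotypes changed. Per 100 reads of cytosolic ribosomal protein genes, the mitochondrial family had 0.937 and 0.983 reads in wild type, 0.80 and 1.02 in CTCF-mutant larvae, 1.31 and 1.32 in CTCF/Su(Hw) larvae, 1.03 and 1.12 in CTCF/Pita larvae, and 0.977 and 0.842 in triple-mutant larvae. Per 100 reads of nuclear genes for oxidative phosphorylation it had 5.72 and 5.98 in wild type, 4.51 and 5.27 in CTCF-mutant larvae, and from 7.65 to 9.17 in the other 6 mutant libraries. Both libraries of CTCF/Su(Hw) larvae and of CTCF/Pita larvae were therefore above both wild-type libraries on each of these ratios, the reverse of their order in CPM. Within the family, the small-subunit genes had from 45.6 to 52.7 reads per 100 reads of the large-subunit genes in the 10 libraries, with 46.8 and 48.5 in wild type. With 2 libraries against 2, an exact permutation test cannot give a two-sided p below 0.333, so these sums carry no test.

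**Figure D1:**
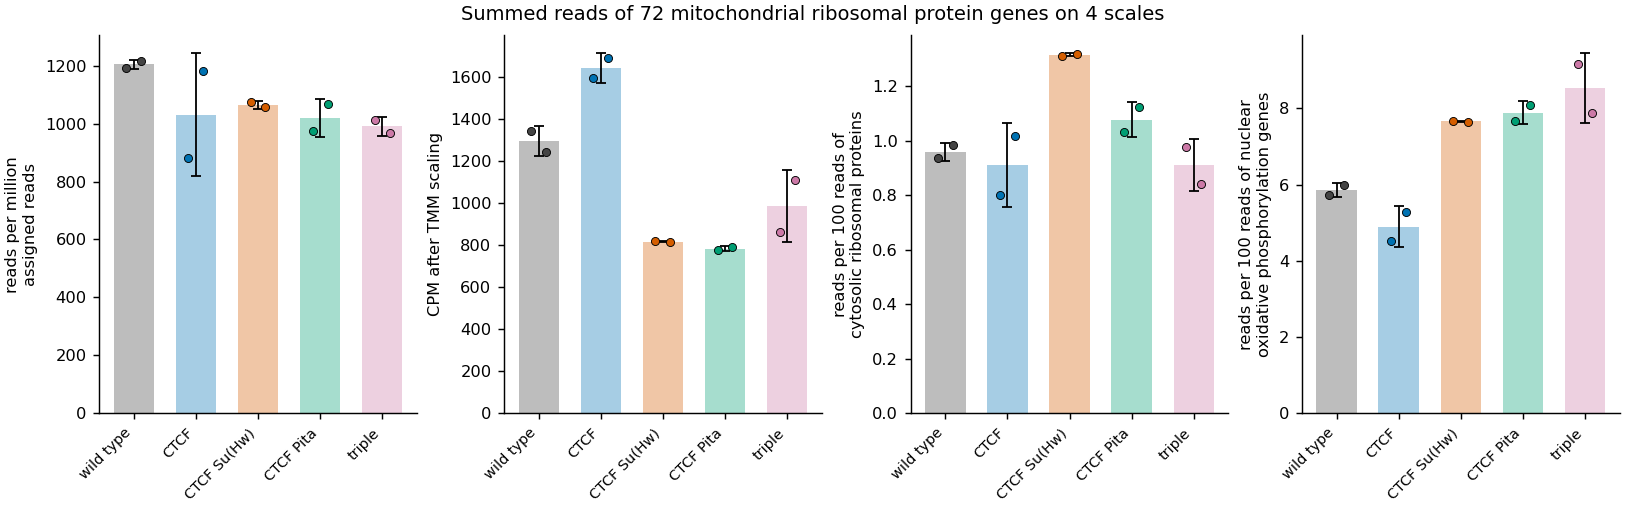
Summed reads of the 72 mitochondrial ribosomal protein genes in each library (points) with the group mean and SD (bars, n = 2) on 4 scales, namely as CPM of assigned reads, as TMM-scaled CPM, per 100 reads of cytosolic ribosomal protein genes and per 100 reads of nuclear oxidative phosphorylation genes. The double mutants stand below wild type in TMM-scaled CPM (816 and 783 against 1295) and above it on both ratios to other gene families.

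The same choice of scale applied to every comparison of single genes. The genes were tested with edgeR in 1 fit over all 10 libraries, and a gene was called at an adjusted p under 0.05 over the 10585 genes tested. With TMM the median log2 fold change of all tested genes lay between -0.02 and 0.06 in the comparisons with wild type and with CTCF-mutant larvae. With libraries scaled to their totals alone, the median of all genes against wild type moved to -0.59 in CTCF-mutant larvae, 0.48 in CTCF/Su(Hw) larvae, 0.48 in CTCF/Pita larvae and 0.14 in triple-mutant larvae. The difference between the median of the family and that of all genes hardly depended on this choice. It was 0.34 in CTCF-mutant larvae, -0.66 in CTCF/Su(Hw) larvae, -0.75 in CTCF/Pita larvae and -0.42 in triple-mutant larvae with library totals. Changes below are relative to the bulk of genes in this sense.

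In CTCF-mutant larvae, 1 of 70 members was called against wild type, and it was higher. The rise was in mRpL42, a large-subunit protein found only in mitochondria. Of all tested genes, 2.2% were called higher. The gene mRpL42 (FBgn0033480, 2R:10066650-10067242 in the dm6 assembly) stood at 21.1 and 18.3 CPM in wild type and 37.6 and 42.7 in CTCF-mutant larvae. Both mutant libraries were far above both wild-type libraries, with a log2 fold change of 1.03 (SE 0.163, edgeR adjusted p = 0.00739). The median log2 fold change of the 70 members was 0.32, with quartiles of 0.17 and 0.46, against -0.02 for all genes, and 65 members were above 0. It turned to -0.25 with library totals, where no member was called, beside 97 of 10585 tested genes called higher and 1217 lower. There mRpL42 had an edgeR adjusted p of 0.142. Both mutant libraries were above both wild-type libraries in 47 members, 32 of 46 mRpL and 15 of 24 mRpS, while 25.7% of all tested genes showed this. Without wild type replicate 2 or CTCF replicate 2 there was no call, and without triple replicate 1 or triple replicate 2 there were 8, as these libraries enter the shared estimate of the spread.

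In CTCF/Su(Hw) larvae, 42 of 70 members were called lower than wild type and none higher, 28 of 46 mRpL and 14 of 24 mRpS. Of all tested genes, 17.4% were called lower. The median log2 fold change was -0.67, against -0.01 for all genes, and 68 of 70 members were below 0. With library totals, 509 of all 10585 tested genes were called lower and 3128 higher. On that scale the member median was -0.18, 3 members were called lower, namely mRpL4, mRpL9 and mRpL49, and 1, mRpL24, was called higher. The count was 20 with the near-identical libraries summed, 20 without wild type replicate 1, 20 without CTCF Su(Hw) replicate 1 and 17 without CTCF Su(Hw) replicate 2. Both mutant libraries were below both wild-type libraries in 64 members, against 38.0% of all genes.

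Among the largest falls in CTCF/Su(Hw) larvae was mRpL49 (FBgn0030433, X:12907105-12907942), a protein specific to the mitochondrial large subunit, with 22.1 and 24 CPM in wild type and 8.44 and 7.95 in the mutant. The mutant libraries were far below wild type, with a log2 fold change of -1.49 (SE 0.289, edgeR adjusted p = 0.00361). The gene mRpL4 (FBgn0001995, 2L:16328059-16329132), whose bacterial counterpart lines the tunnel through which the new peptide leaves the ribosome, had 25.6 and 22.2 CPM in wild type and 8.99 and 8.81 in the mutant. It fell by 1.43 on the log2 scale (SE 0.21, edgeR adjusted p = 0.0009). The gene mRpL9 (FBgn0038319, 3R:15330738-15331588), counterpart of an elongated protein at the base of the L1 stalk in bacteria, had 36.9 and 32.0 CPM in wild type and 14.6 and 13.6 in the mutant. It fell by 1.29 (SE 0.176, edgeR adjusted p = 0.00061), and mRpL4, mRpL9 and mRpL49 were also called under every alternative setting tried. In the small subunit mRpS21, the counterpart of bacterial S21, gave the largest estimate, -1.62 (SE 0.546, edgeR adjusted p = 0.0412), from only 105 reads in all 10 libraries. Its 1.80 and 3.76 CPM in wild type and 0.83 and 0.96 in the mutant do not overlap, but 48.0% of its exonic bases are shared with another gene, and its value is uncertain. The call was lost without wild type replicate 2 at an edgeR adjusted p of 0.313, without either CTCF library at 0.0558 and 0.0548, without either library of CTCF/Su(Hw) larvae at 0.202 and 0.168, and with DESeq2 at 0.0885.

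In CTCF/Pita larvae, 52 of 70 members were called lower than wild type and none higher, 36 of 46 mRpL and 16 of 24 mRpS. Of all tested genes, 19.2% were called lower. All 70 tested members had a log2 fold change below 0, with a median of -0.76 against 0.00 for all genes. With library totals, 571 of all 10585 tested genes were called lower and 3408 higher. On that scale the member median was -0.27 and 8 members were called lower, namely mRpL4, mRpL9, mRpL15, mRpL20, mRpL41, mRpL50, mRpL55 and mRpS14. Those 8 were called under every alternative setting tried. The count was 25 without wild type replicate 1, 30 without CTCF Pita replicate 2 and 30 with DESeq2. Both mutant libraries were below both wild-type libraries in 65 members, against 35.6% of all genes.

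In CTCF/Pita larvae mRpS21 again had the largest estimate, -1.83 (edgeR adjusted p = 0.0283), and mRpL4 followed with 8.18 and 11.5 CPM and a fall of 1.27 (edgeR adjusted p = 0.00128). The call of mRpS21 was lost without wild type replicate 2 at 0.23, without CTCF Pita replicate 2 at 0.194, without either library of CTCF/Su(Hw) larvae at 0.0567 and 0.0569, and with DESeq2 at 0.0602. The gene mRpL41 (FBgn0034001, 2R:15217024-15217617), specific to mitochondria, had 13.4 and 16.3 CPM in wild type and 5.83 and 6.75 in the mutant, and fell by 1.23 on the log2 scale (edgeR adjusted p = 0.0015). The gene mRpL55 (FBgn0038678, 3R:19094394-19094905), also specific to mitochondria, had 17.1 and 16.4 CPM in wild type and 8.18 and 6.36 in the mutant, with a fall of 1.22 (edgeR adjusted p = 0.00122). The libraries of wild type and mutant were widely separated in both genes. The gene mRpL50 (FBgn0028648, 3L:7243080-7243933) had 15.4 and 12.7 CPM in wild type and 6.08 and 6.07 in the mutant, with a log2 fold change of -1.2 (edgeR adjusted p = 0.000814). The gene mRpL15 (FBgn0036990, 3L:20435110-20436209), counterpart of bacterial L15, had 18.1 and 17.7 CPM in wild type and 8.18 and 8.20 in the mutant, with a fall of 1.13 (edgeR adjusted p = 0.000572). In the small subunit mRpS14 (FBgn0044030, X:19479382-19480238), counterpart of bacterial S14, had 15.7 and 11.6 CPM in wild type and 6.57 and 5.79 in the mutant, with a fall of 1.14 (edgeR adjusted p = 0.00246).

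In triple-mutant larvae, 18 of 70 members were called lower than wild type and none higher, 13 of 46 mRpL and 5 of 24 mRpS. Of all tested genes, 10.3% were called lower. The median log2 fold change was -0.41, against 0.00 for all genes, and 66 members were below 0. With library totals the median was -0.27 and 6 members were called lower, while 571 of all 10585 tested genes were called lower and 1044 higher. Both mutant libraries were below both wild-type libraries in 45 members, against 29.2% of all genes. The libraries of triple-mutant larvae differed more than those of other groups: replicate 2 was above replicate 1 in 62 of 70 members, by a median of 0.35 on the log2 scale, and 12 members differed more than 1.5-fold. The count was 5 without wild type replicate 1, 11 without wild type replicate 2, 7 without triple replicate 1, and 9 without either library of CTCF/Su(Hw) larvae. It was 7 when only wild type and triple-mutant larvae were fitted, 9 with the CTCF Su(Hw) libraries summed and 7 with DESeq2.

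The largest fall in triple-mutant larvae was in mRpL20 (FBgn0036335, 3L:13017149-13017867), whose bacterial counterpart is needed early in the assembly of the large subunit. It had 15.2 and 14.7 CPM in wild type, 15.1 and 17.9 in CTCF-mutant larvae, 9.46 and 10.8 in CTCF/Su(Hw) larvae, 6.94 and 6.27 in CTCF/Pita larvae, and 4.92 and 7.24 in triple-mutant larvae. CTCF-mutant larvae overlapped wild type and the 3 others lay below it. The log2 fold change against wild type was -0.56 in CTCF/Su(Hw) larvae (edgeR adjusted p = 0.0442), -1.18 in CTCF/Pita larvae (edgeR adjusted p = 0.0016) and -1.34 in triple-mutant larvae (SE 0.215, edgeR adjusted p = 0.00124). The call in CTCF/Su(Hw) larvae was lost without any one library of wild type or of CTCF/Su(Hw) larvae, at edgeR adjusted p from 0.104 to 0.231, and with DESeq2 at 0.199. The gene mRpL55 followed with 6.63 and 7.44 CPM in triple-mutant larvae and a fall of 1.27 (edgeR adjusted p = 0.00141). The gene mRpL41 had 7.28 and 7.84 CPM and a fall of 0.98 (edgeR adjusted p = 0.00727), which was 0.0569 and no longer a call without wild type replicate 2. The gene mRpL4 had 10.4 and 15.1 CPM and a fall of 0.94 (edgeR adjusted p = 0.00897), lost without wild type replicate 1 at 0.0709 and without triple replicate 1 at 0.0652. Under every alternative setting tried, 3 members were called in triple-mutant larvae, namely mRpL9, mRpL20 and mRpL55.

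**Figure D2:**
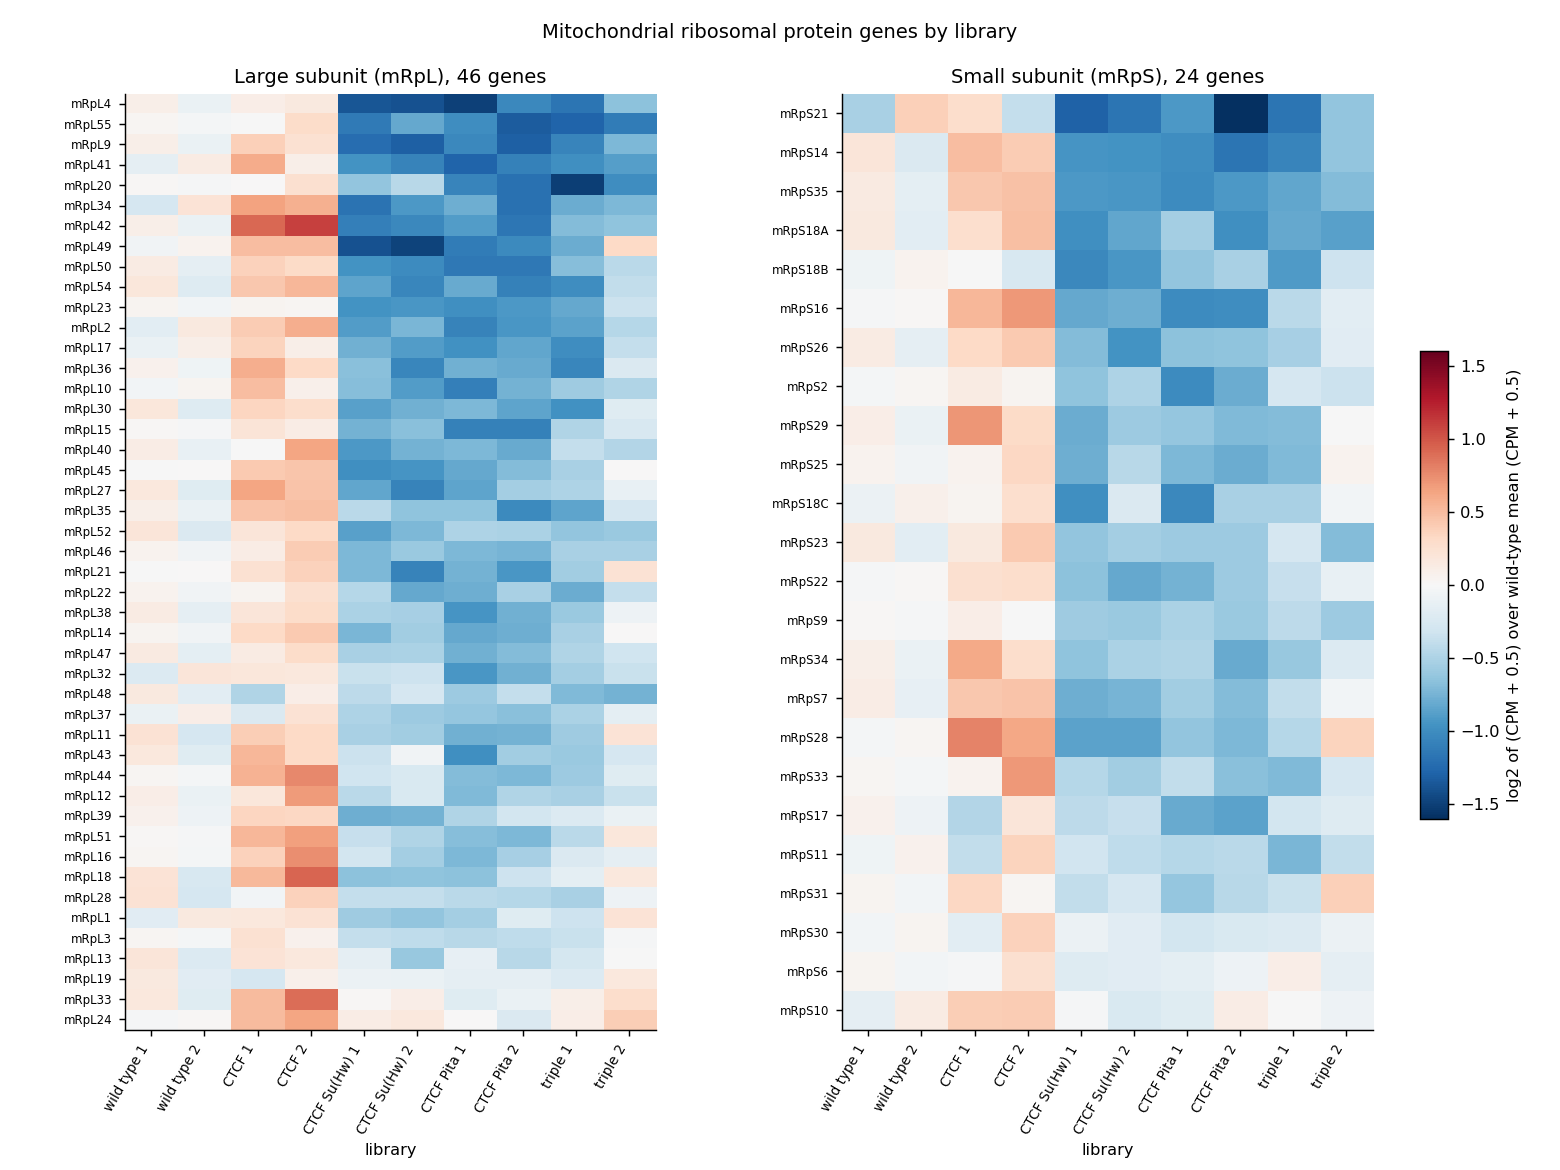
Levels of 46 mRpL and 24 mRpS genes in the 10 libraries, as the log2 ratio of CPM to the wild-type mean after adding 0.5 CPM to both, with genes sorted within each subunit. Most genes are above wild type in CTCF-mutant larvae and below it in both double mutants, with TMM scaling, and triple-mutant larvae are lighter in replicate 2, where 62 of 70 members are higher than in replicate 1; with library totals the median in CTCF-mutant larvae turns to -0.25.

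The calls in the 3 genotypes fell on overlapping members. Of the 70, 18 were called lower than wild type in all 3 of these genotypes, 23 in 2 of them, 12 in 1 and 17 in none. The double mutants shared 41 members, which is all but 1 (mRpL39) of those called in CTCF/Su(Hw) larvae and all but 11 of those called in CTCF/Pita larvae. All 18 members called in triple-mutant larvae were also called in both double mutants. These comparisons share the wild-type libraries, so the overlap is given as a count only. The same overlap over all tested genes is not given here, so these counts do not show how far it is particular to the family. The 18 were mRpL2, mRpL4, mRpL9, mRpL17, mRpL20, mRpL23, mRpL41, mRpL42, mRpL46, mRpL50, mRpL52, mRpL54, mRpL55, mRpS9, mRpS14, mRpS18A, mRpS18B and mRpS35. Their roles are spread over the particle, from mRpL2, which in bacteria lies beside the centre where peptide bonds form, to mRpL23, which in bacteria sits at the exit of the peptide tunnel and receives targeting factors there. In mammals the protein named S18A is a part of the large subunit.

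The calls were spread over both subunits, both origins and all 5 chromosome arms. Members with a number that bacteria also use were called lower in 23 of 41 cases in CTCF/Su(Hw) larvae, 29 of 41 in CTCF/Pita larvae and 10 of 41 in triple-mutant larvae. Members specific to mitochondria by their number were called lower in 19, 23 and 8 of 29 cases. Members that share no exon with another gene were called lower in 19, 22 and 8 of 29, and those that share one in 23, 30 and 10 of 41. By chromosome arm, CTCF/Su(Hw) larvae had calls in 6 of 12 tested members on 2L, 8 of 11 on 2R, 13 of 16 on 3L, 10 of 20 on 3R and 5 of 11 on X. In CTCF/Pita larvae the counts in the same order were 7, 10, 13, 14 and 8. The differences between these classes were not tested. Across the 70 members the mean level in wild type and the log2 fold change had a Pearson r of -0.05 in CTCF/Su(Hw) larvae, 0.02 in CTCF/Pita larvae and 0.05 in triple-mutant larvae, given as a description.

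The 17 members not called lower than wild type in any genotype included mRpL28, mRpL33, mRpL19, mRpS6 and mRpL48. The gene mRpL28 had 63.4 and 44.8 CPM in wild type, 52.7 and 69.8 in CTCF-mutant larvae, 41.4 and 41.3 in CTCF/Su(Hw) larvae, 39.9 and 39.2 in CTCF/Pita larvae and 37.7 and 51.2 in triple-mutant larvae. Its wild-type libraries were far apart, and triple-mutant larvae overlapped them. The gene mRpL33 had 13.6 and 10.5 CPM in wild type and 12.1 and 12.9 in CTCF/Su(Hw) larvae, which lay within the range of wild type. The gene mRpL19, whose bacterial counterpart reaches the interface with the small subunit, had 13.4 and 10.5 CPM in wild type, 9.84 and 12.6 in CTCF-mutant larvae, 11.1 and 11.1 in CTCF/Su(Hw) larvae, 10.8 and 10.8 in CTCF/Pita larvae and 10.2 and 13.5 in triple-mutant larvae. All 4 mutant genotypes lay within or overlapped the range of wild type. The gene mRpS6 was between 5.01 and 7.08 CPM in all libraries, and mRpL48 between 4.22 and 8.33. The genes mRpL19, mRpS6 and mRpL48 were not called in any of the 9 comparisons with TMM. With library totals mRpL19 was called at 1.03 and 0.99 in the double mutants against CTCF-mutant larvae and at -1.28 in the interaction, mRpS6 at 0.79 in CTCF/Pita against CTCF-mutant larvae, and mRpL48 at 0.84 in CTCF/Su(Hw) against CTCF-mutant larvae and at -1.45 in the interaction.

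**Figure D3:**
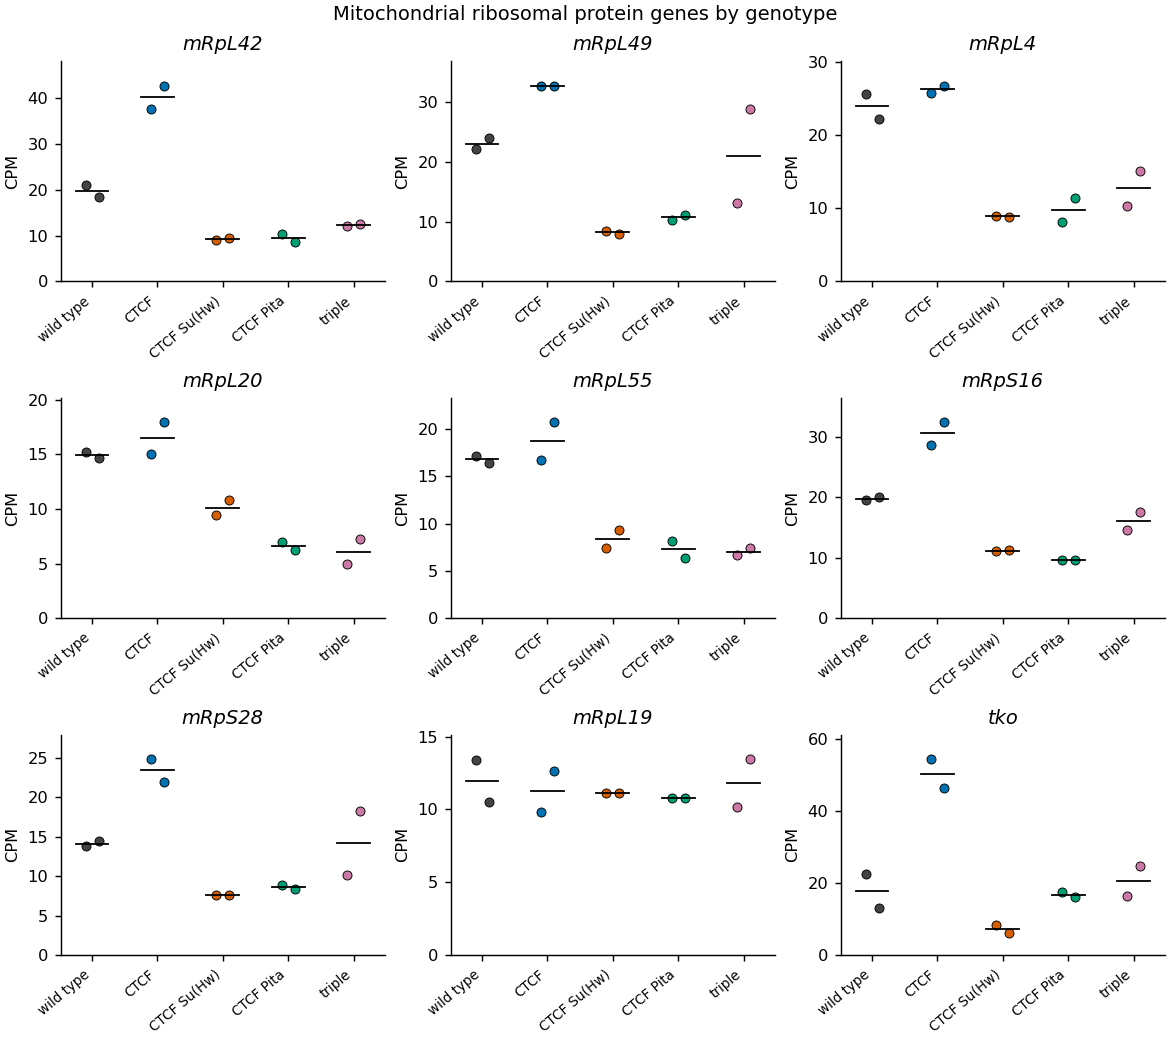
CPM in each library for mRpL42, mRpL49, mRpL4, mRpL20, mRpL55, mRpS16, mRpS28, mRpL19 and tko, by genotype, with points for libraries and the mean of 2. mRpL42 lies highest in CTCF-mutant larvae (37.6 and 42.7 CPM) and lowest in both double mutants. mRpL20 has its lowest mean in triple-mutant larvae (4.92 and 7.24 CPM), which overlap CTCF/Pita larvae (6.94 and 6.27 CPM). mRpL19 in each mutant genotype overlaps the range of wild type.

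The added mutations were next compared with CTCF-mutant larvae, the background in which they were made. In CTCF/Su(Hw) larvae, 58 of 70 members were lower than in CTCF-mutant larvae and none higher, 41 of 46 mRpL and 17 of 24 mRpS, while 21.4% of all tested genes were called lower. The median log2 fold change was -1.02, against 0.06 for all genes, and all 70 were below 0. It was -1.03 with the libraries of CTCF/Su(Hw) larvae summed. With library totals the median turned to 0.04, with 4 members called lower and 6 higher. In CTCF/Pita larvae, 61 of 70 members were lower than in CTCF-mutant larvae, 42 mRpL and 19 mRpS, against 22.6% of all genes. The median there was -1.13, against 0.06, and with library totals it was -0.06, with 2 members called lower and 3 higher. The all-gene median with library totals was 1.12 in each of these comparisons, and 30 and 40 of 70 members were below 0 there. Of all 10585 tested genes, 379 and 383 were called lower on that scale and 6815 and 6941 higher. The gene mRpL3, whose bacterial counterpart lies near the centre of peptide bond formation, was called lower with TMM in CTCF/Su(Hw) larvae, at -0.56, and higher with library totals, at 0.51 (edgeR adjusted p = 0.021 and 0.0385). CTCF-mutant larvae also held the largest share of mitochondrial DNA reads. With genes of mitochondrial DNA left out of the fit and TMM scaling, the member medians were -1.02 in CTCF/Su(Hw) larvae and -1.13 in CTCF/Pita larvae. The part of that share in these differences was not tested further.

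The largest fall on the CTCF mutant background was in mRpL42, the member called higher there than in wild type. From 37.6 and 42.7 CPM in CTCF-mutant larvae, mRpL42 stood at 8.99 and 9.38 in CTCF/Su(Hw) larvae and 10.4 and 8.58 in CTCF/Pita larvae. Each step was far larger than the spread of either group, with log2 fold changes of -2.13 (SE 0.168, edgeR adjusted p = 1.95e-05) and -2.09 (edgeR adjusted p = 2.79e-05). The gene mRpL49 had 32.7 and 32.6 CPM in CTCF-mutant larvae, 8.44 and 7.95 in CTCF/Su(Hw) larvae and 10.3 and 11.1 in CTCF/Pita larvae, with falls of 1.99 and 1.61 on the log2 scale. The gene mRpL34, counterpart of one of the smallest bacterial ribosomal proteins, had 7.52 and 7.08 CPM in CTCF-mutant larvae and 1.76 and 2.20 in CTCF/Su(Hw) larvae, a fall of 1.87. In the small subunit mRpS16 (FBgn0033907, 2R:14172986-14173596), whose bacterial counterpart takes part in assembly, had 28.6 and 32.4 CPM in CTCF-mutant larvae, 11.0 and 11.3 in CTCF/Su(Hw) larvae and 9.55 and 9.64 in CTCF/Pita larvae. The double mutants were far below CTCF-mutant larvae in each of these genes. With library totals, mRpL42 and mRpL49 were still called lower in CTCF/Su(Hw) larvae, and mRpL42 and mRpS16 in CTCF/Pita larvae.

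The last steps compared triple-mutant larvae with each double mutant. Against CTCF/Su(Hw) larvae, 9 members were called higher and 1 lower, while 12.1% of all genes were called higher and 10.4% lower. The median was 0.22, against 0.00 for all genes, and turned to -0.12 with library totals, where mRpL49 was called higher and mRpL20 lower. On that scale 511 of all 10585 tested genes were called higher and 1536 lower. The count of 10 became 0 without either CTCF Su(Hw) library, 6 without either CTCF library, 21 without triple replicate 1 and 2 without triple replicate 2, and 0 with the CTCF Su(Hw) libraries summed. It was 1 when only the groups compared were fitted, 3 with DESeq2 and 6 with replicate numbers as a block. Against CTCF/Pita larvae, 4 members were called higher, namely mRpL15, mRpL50, mRpS2 and mRpS16, and none lower, while 9.87% of all genes were called higher. The median was 0.31, against -0.01, and turned to -0.05 with library totals, where no member was called. On that scale 310 of all 10585 tested genes were called higher and 920 lower. The count of 4 became 2 without either CTCF Su(Hw) library, 0 without CTCF Pita replicate 1, 1 without CTCF Pita replicate 2, 19 without triple replicate 1 and 0 without triple replicate 2. It was 9 with no filter on low counts, 0 when only the groups compared were fitted, 2 with the libraries summed, 2 with both strand columns summed and 1 with DESeq2.

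None of these calls held in every setting. The gene mRpL49 had 13.1 and 28.7 CPM in triple-mutant larvae, libraries that differed more than in any other group, against 8.44 and 7.95 in CTCF/Su(Hw) larvae. Its log2 fold change was 1.30 (SE 0.292, edgeR adjusted p = 0.00985), with an edgeR adjusted p of 0.0733 without CTCF Su(Hw) replicate 1 and 0.0949 without replicate 2. The gene mRpS28 (FBgn0034361, 2R:18614210-18615018), specific to mitochondria, had 10.2 and 18.3 CPM in triple-mutant larvae and 7.60 and 7.57 in CTCF/Su(Hw) larvae, a rise of 0.86 (edgeR adjusted p = 0.0268). The gene mRpL45 (FBgn0263863, 3R:22618492-22619826), whose mammalian counterpart holds the ribosome to the inner membrane, had 30.5 and 43.8 CPM against 21.9 and 22.4, a rise of 0.73 (edgeR adjusted p = 0.0131). Against CTCF/Pita larvae, mRpL15 had 12.7 and 14.9 CPM in triple-mutant larvae against 8.18 and 8.20, a rise of 0.74 (edgeR adjusted p = 0.0142). The gene mRpS16 had 14.6 and 17.5 CPM in triple-mutant larvae and was called higher than in each double mutant, by 0.51 (edgeR adjusted p = 0.0417) and 0.72 (edgeR adjusted p = 0.0154). The only member called lower was mRpL20, by -0.78 against CTCF/Su(Hw) larvae (SE 0.213, edgeR adjusted p = 0.0235), a call lost without triple replicate 1 at 0.141 and without either library of CTCF/Su(Hw) larvae at 0.0821 and 0.171. Without either of those libraries no member was called against CTCF/Su(Hw) larvae. The calls of mRpL15 and mRpS16 against CTCF/Pita larvae were lost without CTCF Pita replicate 1 at 0.0585 and 0.0652 and without triple replicate 2 at 0.0542 and 0.0601, and that of mRpS16 also without CTCF Pita replicate 2 at 0.0516.

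**Figure D4:**
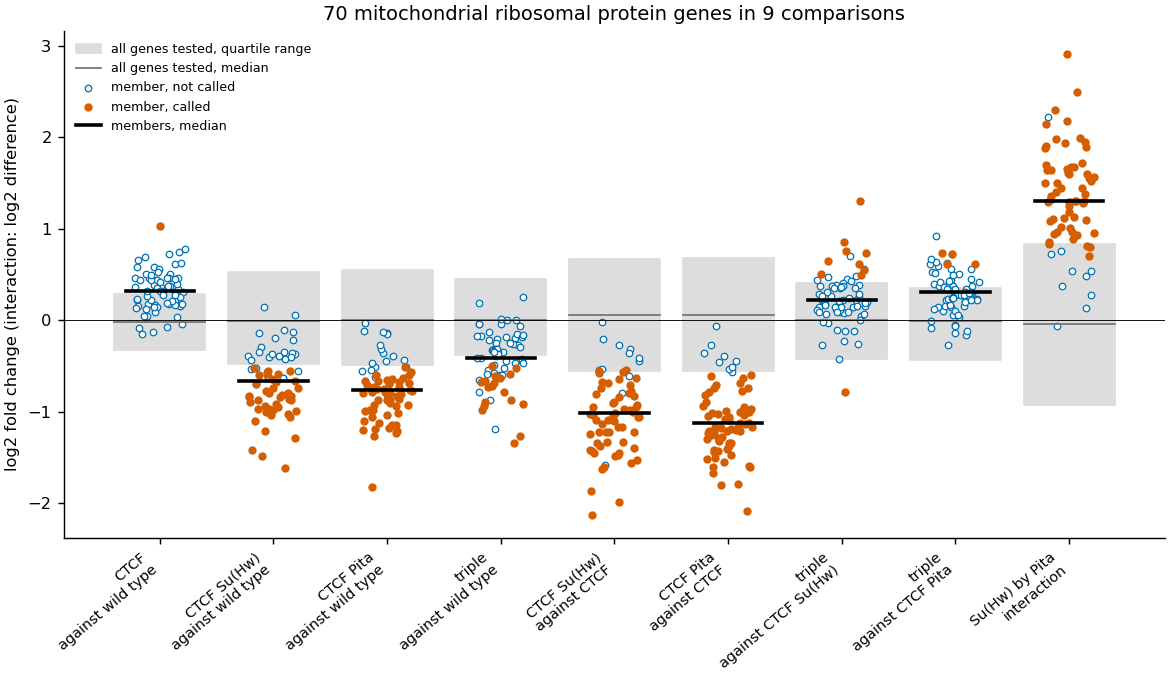
Log2 fold changes of the 70 tested members (points, filled where called) in the 9 comparisons with TMM scaling, beside the median and quartiles of all 10585 tested genes (boxes). The members lie below the all-gene median in both double mutants and triple-mutant larvae against wild type and above it in CTCF-mutant larvae; with library totals the sign of the member median turns for CTCF-mutant larvae, CTCF/Su(Hw) larvae against CTCF-mutant larvae, both comparisons of triple-mutant larvae with a double mutant, and the interaction.

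The last comparison asked whether the Su(Hw) mutation, with the higher su(Hw) transcript level that goes with it, had the same effect with and without the Pita mutation. It was the interaction on the log2 scale, the change from CTCF/Pita larvae to triple-mutant larvae less the change from CTCF-mutant larvae to CTCF/Su(Hw) larvae. It was called in 59 of 70 members, 41 of 46 mRpL and 18 of 24 mRpS, all in the positive direction, while 23.2% of all tested genes were called in that direction. The median was 1.31, against -0.04 for all genes, and 69 members were above 0. It was 1.34 with the libraries of CTCF/Su(Hw) larvae summed. With library totals the member median turned to -0.11, with 3 members called positive and 5 negative. On that scale 344 of all 10585 tested genes were called positive and 6457 negative. The log2 fold change of the added Su(Hw) mutation was below 0 in CTCF-mutant larvae and above 0 in CTCF/Pita larvae for 62 of 70 members with TMM scaling, and the other 8 were below 0 in both. Of all 10585 tested genes, 3428 were below 0 in the first and above 0 in the second, and 1610 were below 0 in both. Across the 70 members the 2 effects had a Pearson r of -0.35 and a Spearman rho of -0.30, and over all 10585 tested genes they had -0.18 and -0.42, given as a description, with no library in common between them.

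The smallest adjusted p-values of the interaction were in mRpL42, with an estimate of 2.50 (SE 0.242, edgeR adjusted p = 0.00017), and in mRpS16, with 2.17 (edgeR adjusted p = 0.000218), followed by mRpL45 with 1.94 and mRpL50 with 1.99. The largest estimates included mRpL49 with 2.91 (SE 0.412, edgeR adjusted p = 0.000499) and mRpS28 with 2.30 (edgeR adjusted p = 0.000607). The gene mRpL42 moved from 40.2 ± 3.61 CPM in CTCF-mutant larvae to 9.19 ± 0.278 with the Su(Hw) mutation added, and from 9.50 ± 1.30 in CTCF/Pita larvae to 12.2 ± 0.336 (SD, n = 2). The first step was far larger than the spread of either group, and the second was not called. The genes mRpL42, mRpL49 and mRpS28 were called positive under every alternative setting tried, while mRpS16, mRpL45 and mRpL50 were not called with library totals, at edgeR adjusted p of 0.053, 0.162 and 0.125. The estimate for mRpL20 was 0.54 and was not called (edgeR adjusted p = 0.162).

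**Figure D5:**
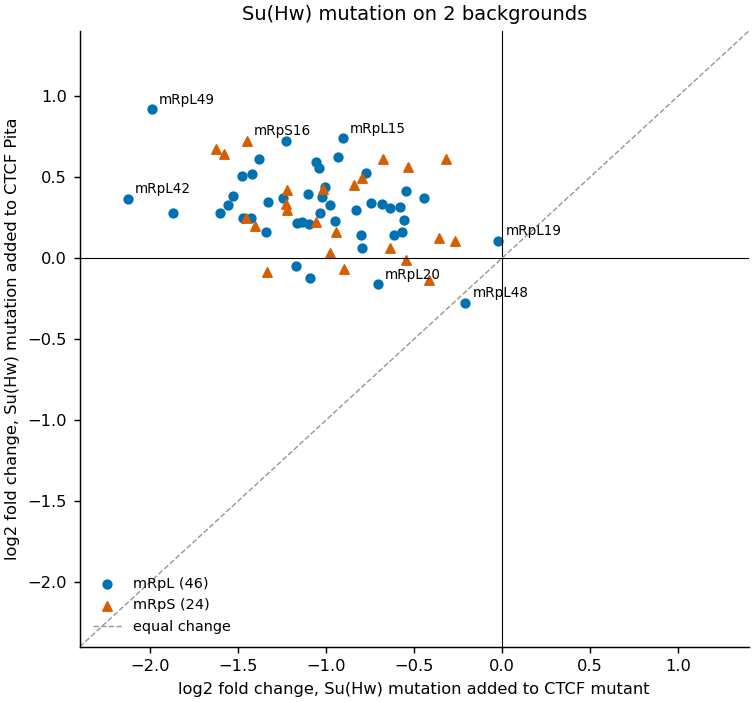
Log2 fold change of each of 70 members when the Su(Hw) mutation is added to CTCF-mutant larvae (horizontal axis) and to CTCF/Pita larvae (vertical axis), for 46 mRpL and 24 mRpS genes, with TMM scaling. All points lie below 0 on the horizontal axis and 62 of 70 lie above 0 on the vertical axis. Of all 10585 tested genes, 3428 lie below 0 on the first and above 0 on the second. With library totals the medians of the members are 0.04 and -0.05.

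A pair of mitochondrial ribosomal protein genes lack the prefix. The first, technical knockout or tko (FBgn0003714, X:2442313-2443976), encodes the counterpart of bacterial S12, a protein of the decoding centre, and its mutants are known for seizures after mechanical shock and for slow development. It had 22.4 and 13.2 CPM in wild type, 54.4 and 46.3 in CTCF-mutant larvae, 8.34 and 6.03 in CTCF/Su(Hw) larvae, 17.4 and 16.0 in CTCF/Pita larvae and 16.5 and 24.7 in triple-mutant larvae. CTCF-mutant larvae were above all other libraries and CTCF/Su(Hw) larvae below all others, while CTCF/Pita and triple-mutant larvae overlapped wild type. The log2 fold change against wild type was 1.5 in CTCF-mutant larvae (SE 0.267, edgeR adjusted p = 0.013) and -1.30 in CTCF/Su(Hw) larvae (edgeR adjusted p = 0.0061). The first call was lost without wild type replicate 2 at 0.113, without CTCF replicate 1 at 0.129 and without CTCF replicate 2 at 0.0569. The second was lost without wild type replicate 1 at 0.0789 and without CTCF Su(Hw) replicate 2 at 0.0748. The interaction in tko was 3.08 (edgeR adjusted p = 0.000343), above the value of any of the 70 members. The other gene, bonsai (FBgn0026261), encodes the counterpart of bacterial S15 and had 16.0 and 17.5 CPM in wild type, 15.7 and 14.9 in CTCF/Su(Hw) larvae and 12.0 and 13.1 in triple-mutant larvae. It was not called against wild type in any genotype.

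Other genes that mitochondria need for making their proteins were described from lists. Of 9 tested mitochondrial translation factors, 3 were called lower than wild type in CTCF/Su(Hw) larvae, 2 in CTCF/Pita larvae and 2 in triple-mutant larvae, against 17.4%, 19.2% and 10.3% of all tested genes, and 1, 1 and 0 with library totals. With library totals, 509, 571 and 571 of all 10585 tested genes were called lower in these genotypes and 3128, 3408 and 1044 higher. The elongation factor mEFTu1, which brings aminoacyl-tRNA to the ribosome, fell by 1.13, 1.17 and 0.76 on the log2 scale (edgeR adjusted p = 0.000307, 0.000207 and 0.00268). Mitochondrial aminoacyl-tRNA synthetases as a family charge tRNAs. Of 16 genes listed under that name, among them Slimp, 2 were called lower in each double mutant and 1 in triple-mutant larvae. The gene PheRS-m, of the phenylalanine enzyme, had -0.73, -0.71 and -0.49. The synthetase medians of -0.13 in CTCF/Su(Hw) larvae and -0.23 in CTCF/Pita larvae turned to 0.35 and 0.25 with library totals, where none was called lower and 1 was called higher in each. Of 13 genes for transcription and RNA processing in mitochondria, 3, 5 and 2 were called lower, and 0, 1 and 0 with library totals, where the median in CTCF/Su(Hw) larvae went from -0.48 to 0.01. The gene Lrpprc2, of a family that binds mitochondrial mRNA, had the largest called fall there, 1.30, in CTCF/Pita larvae. Of 16 protein import genes, 3, 6 and 3 were called lower and 1, 0 and 1 higher, with Tim17b, a channel subunit of the inner membrane, higher by 0.78 in CTCF/Su(Hw) larvae and 0.92 in triple-mutant larvae. With library totals no import gene was called lower, 3, 0 and 1 were called higher, and the medians of -0.27 and -0.39 in the double mutants turned to 0.22 and 0.09.

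Genes for cytosolic ribosomal proteins and for the respiratory chain were counted in the same way, beside the same shares of all genes. Of 88 cytosolic ribosomal protein genes, 80 were called lower than wild type in CTCF/Su(Hw) larvae and 72 in CTCF/Pita larvae, with medians of -1.11 and -0.83, but 2 in triple-mutant larvae, with a median of -0.30. Of 78 nuclear genes for oxidative phosphorylation, 58, 60 and 48 were called lower, with medians of -0.99, -1.07 and -0.81. Some genes of both lists were called higher. In CTCF/Su(Hw) and CTCF/Pita larvae the cytosolic RpL10Aa rose by 2.57 and 2.96 and the respiratory COX7CL by 1.77 and 2.89. In triple-mutant larvae the respiratory ND-51L1 rose by 1.35. With library totals 60, 32 and 5 cytosolic genes were called lower and 1, 1 and 0 higher. For oxidative phosphorylation 38, 41 and 41 were called lower there and 5, 12 and 2 higher, and all medians of both lists were below 0. Of 14 tested genes of mitochondrial DNA, 13 were called higher in CTCF-mutant larvae, with a median of 2.05, and 2 were called lower in CTCF/Su(Hw) larvae, with a median of -0.78, and none in CTCF/Pita or triple-mutant larvae.

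Signs of tissue make-up moved with the genotypes as well. The summed level of the muscle genes, of which 7 of 8 were tested, was 60720 to 63190 CPM in wild type, 65870 to 71910 in CTCF-mutant larvae, 40600 to 41870 in CTCF/Su(Hw) larvae, 27350 to 28690 in CTCF/Pita larvae and 28810 to 30800 in triple-mutant larvae. The summed level of 7 neuronal genes was 142 to 156 CPM in wild type, 121 to 133 in CTCF-mutant larvae, 294 to 320 in CTCF/Su(Hw) larvae, 190 to 192 in CTCF/Pita larvae and 127 to 162 in triple-mutant larvae. Much of the value in CTCF/Su(Hw) larvae came from brp, with 2027 reads there, 90 in wild type and 165 in CTCF/Pita larvae. The other neuronal genes rose less, such as elav with 738 reads there against 240 in wild type, and Syt1 with 1863 against 834. A read was 0.157 to 0.163 CPM in wild type, 0.0927 to 0.0958 in CTCF/Su(Hw) larvae and 0.0964 to 0.124 in CTCF/Pita larvae. In CPM these rises are therefore smaller than in reads. Larval serum proteins, made by the fat body, summed to 46450 to 54620 CPM in wild type, 65830 to 73390 in CTCF-mutant larvae and 29880 to 44960 in the other mutants. Muscle is rich in mitochondria, and the sums of its genes and of the mitochondrial ribosomal protein genes were both highest in CTCF-mutant larvae in TMM-scaled CPM. The muscle sum was led by Act57B and Mlc2, and up, Mhc and Tm2 went the other way. They had 71034, 129743 and 41682 reads in wild type, where a read was 0.157 to 0.163 CPM. In CTCF-mutant larvae they had 28906, 66322 and 21970 reads, at 0.253 to 0.289 CPM per read. Salivary glue genes, which mark late larvae, ranged from 14.4 to 3110 CPM and differed widely between libraries of one genotype. Testis genes, of which Mst84Da had no read in any group, summed to 15.9 to 22.1 CPM in wild type and to 9.55 to 72.8 in the mutants. The part of tissue make-up and stage in the results on the family was not tested.

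A few members could not be measured well. No read was counted for mRpL53 in any library, where 3 reads would be 0.278 to 0.868 CPM, and all of its exonic bases (100%) are shared with another gene. The gene mRpS24 had 87 reads in all libraries and shares 55.3% of its exonic bases, and it failed the filter. Its level was 1.31 and 2.19 CPM in wild type and 0.68 to 2.19 over all libraries. Of the 72 genes, 43 share an exonic base with another gene, 8 of them over 20% of their bases. Counting both strand columns gave 10.6 times the reads for mRpS21, 9.83 times for mRpS24, 3.96 times for mRpL18, 2.42 times for mRpL35 and 2.32 times for mRpL23, so the values of these genes are uncertain.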

How the data were processed

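The authors deposited 1 table of raw counts per gene and library. Per the submitters' processing notes, the tools were cutadapt and STAR and the genome build was dm6. Tool versions and the annotation behind the counts are not given here in the sources. The unstranded column was used, since 50.1% to 50.3% of stranded reads lay on the forward strand, so antisense and overlapping genes cannot be told apart. Multimapping and ambiguous reads were not counted, and 3 reads corresponded to 0.278 to 0.868 CPM. The counts were tested with edgeR 4.0.16 (quasi-likelihood F-test, filterByExpr, TMM, 1 fit over 5 groups, two-sided, Benjamini-Hochberg over 10585 tested genes) in R 4.3.3. The fit had 5 residual degrees of freedom, and the biological coefficient of variation was 15.9%. The test was also run on simulated counts with the same gene proportions in all libraries, apart from the genes set to change, and the same dispersion throughout. That run does not cover shifts in composition or unequal spread between replicate pairs, as seen here. DESeq2 1.42.0, other scalings, other filters, left-out libraries and summed libraries were alternatives.

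Groups came from the labels. The members and all lists were chosen with earlier results of these data known, so no set test was made. The text names, per comparison, up to 4 called members with the largest rise and fall whose libraries do not overlap (for the interaction the 4 smallest adjusted p), members called higher than wild type, the 5 highest and lowest per kilobase, the 3 smallest changes against CTCF-mutant larvae, members failing the filter, tko and bonsai, and up to 3 called genes of other lists. The gene mRpS14, the genes mRpL18, mRpL3, mRpL23, mRpL24, mRpL30, mRpL35 and mRpL39, and the 18 members called in all 3 genotypes were named after their values were seen. Nothing says that libraries of a group came from separate larvae, so p-values measure the spread between libraries, which may be technical. The gene mRpS5 was not analysed here. Positions are from the Ensembl annotation of the same assembly. Limits for 0 reads cover counting error only.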

Additional observations from a re-analysis of the deposited data

Results flagged for a closer look

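The effect of the added Su(Hw) mutation differed by an edgeR interaction test between CTCF-mutant larvae and CTCF/Pita larvae in 59 of 70 members, while 23.2% of all tested genes were called in that direction. With library totals 3 members were called positive and 5 negative, beside 344 and 6457 of all 10585 tested genes. Among the genes that the rule for named genes takes, the interaction was called in 18, all in the positive direction with TMM scaling. Other members that the text names, such as mRpL2 and mRpS14, were called too. On the log2 scale it was 3.08 in tko, 2.91 in mRpL49, 2.50 in mRpL42, 2.30 in mRpS28, 2.17 in mRpS16 and 2.15 in mRpL34. It was 1.99 in mRpL50, 1.95 in mRpL21, 1.94 in mRpL45, 1.89 in mRpL4 and 1.88 in mRpL9. It was 1.68 in mRpL41, 1.64 in mRpL15, 1.64 in mRpS7, 1.29 in mRpS2, 1.12 in mRpL55, 1.1 in mRpS31 and 1.02 in mRpL33. With library totals the estimates of mRpL33, mRpL55, mRpS2 and mRpS31 were below 0, and the median of the 70 members was -0.11. The CTCF mutant libraries, which enter every one of these estimates, had the highest shares of mitochondrial DNA reads, 34.6% and 24.2%, and TMM factors of 0.553 and 0.698 against 0.875 to 1.35 in the other libraries. With genes of mitochondrial DNA left out of the fit and TMM scaling, the member median of the interaction was 1.31. The part of these shares and factors in the interaction was not tested further.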

How the results depend on the processing

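With libraries scaled to their totals, the count of called members was 0 in CTCF-mutant larvae, 4 in CTCF/Su(Hw) larvae, 8 in CTCF/Pita larvae and 6 in triple-mutant larvae against wild type. It was 10 and 5 for CTCF/Su(Hw) and CTCF/Pita larvae against CTCF-mutant larvae, 2 and 0 for triple-mutant larvae against these double mutants, and 8 for the interaction. Of all 10585 tested genes, 1314, 3637, 3979, 1615, 7194, 7324, 2047, 1230 and 6801 were called on that scale in the same order. The member medians were -0.25, -0.18, -0.27 and -0.27 in the 4 genotypes against wild type, 0.039 and -0.057 in the double mutants against CTCF-mutant larvae, -0.12 and -0.045 in triple-mutant larvae against the double mutants, and -0.11 for the interaction. Among the called genes that the rule for named genes takes, several turned in sign with library totals; others did too, as 30 and 40 of 70 members were below 0 there in the double mutants against CTCF-mutant larvae, where all 70 were with TMM. Against CTCF-mutant larvae these were, in CTCF/Su(Hw) larvae, mRpL15 at 0.16, mRpL20 at 0.35, mRpL28 at 0.47, mRpL33 at 0.37 and mRpS2 at 0.39, and in CTCF/Pita larvae bonsai at 0.41, mRpL28 at 0.41, mRpL33 at 0.16, mRpS2 at 0.048 and mRpS31 at 0.34. In the interaction they were mRpL33 at -0.38, mRpL55 at -0.27, mRpS2 at -0.12 and mRpS31 at -0.35. All genes were rescaled there by the same factor per library, so differences between genes within a library were not touched.

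The other settings moved counts as well. CTCF-mutant larvae against wild type had 3 calls with RLE size factors, 2 with no filter and 2 with only the groups compared. CTCF/Su(Hw) larvae had 20 with its libraries summed, and CTCF/Pita larvae 30 with DESeq2. Triple-mutant larvae had 7 with only the groups compared, 9 with the summed libraries and 7 with DESeq2. Triple-mutant larvae against CTCF/Su(Hw) larvae had 1, 0 and 3 in these settings, and against CTCF/Pita larvae 0, 2 and 1, with 9 under no filter and 2 with both strand columns summed, a setting chosen after seeing the data. The causes were not tested. Of 2184 values of single genes under alternatives, 1871 kept their direction and side of the threshold, 299 lost the call and 14 turned in sign.

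Leaving out each library in turn gave 0 to 8 calls in CTCF-mutant larvae, 17 to 51 in CTCF/Su(Hw) larvae, 25 to 56 in CTCF/Pita larvae and 5 to 25 in triple-mutant larvae against wild type. It gave 43 to 60 and 51 to 63 for the double mutants against CTCF-mutant larvae, 0 to 21 and 0 to 19 for triple-mutant larvae against the double mutants, and 45 to 61 for the interaction. The member medians ranged from 0.27 to 0.42, -0.76 to -0.62, -0.84 to -0.71, -0.58 to -0.23, -1.09 to -1.01, -1.16 to -1.09, 0.09 to 0.40, 0.16 to 0.52 and 1.16 to 1.58 in the same order. A lone library left in a group was taken to vary like the other groups.

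With the replicate number as a block, the counts were 1, 40, 51, 13, 57, 61, 6, 3 and 59 in the same order. Deviations of same-numbered libraries had correlations from -0.15 to 0.15, so the numbers were not taken as a pairing. Depth limited the low members most, as 105 reads over 10 libraries stood behind mRpS21.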
